A study of Mus musculus with 10 samples.

Results

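The 34 genes described here serve the breakdown of glucose and the response to low oxygen in sorted Tregs (regulatory T cells, a CD4 lineage defined by Foxp3 that keeps immune responses in check). They fall into 17 glycolysis genes, from the glucose transporter gene Slc2a1 to the lactate exporter gene Slc16a3, and 17 hypoxia response genes, from the transcription factor gene Hif1a to the histone demethylase gene Kdm3a. They were found by gene name among the 54532 genes of the deposited count table. The 34 names matched 35 rows, since Aldoa has a second row (ENSMUSG00000114515) with 0 to 32 reads in a library. That row did not pass the filter on low counts and was left aside. All 34 names, Aldoa by its main row, were among the 21414 genes that passed it.

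Expression was measured by Smart-seq2, a full-length RNA sequencing method for small amounts of RNA, in 10 libraries from male C57BL/6 mice, 16 weeks of age. The 5 Tumor libraries hold Tregs from colon tumors of Apc Min/+ mice that also carry Foxp3 DTR. The 5 WT libraries hold Tregs from the colon of Foxp3 DTR mice whose genotype is labelled WT. Foxp3 DTR, which places a diphtheria toxin receptor linked to GFP under Foxp3 control, was thus present in both groups, the labels mention no toxin, and all cells were gated as CD45+CD3+CD4+CD25+GFP+. Apc Min/+ is a germline mutation, so the Tregs carry it as well as the tumor, and genotype and tumor tissue cannot be told apart. The labels do not say whether the libraries of a group came from separate mice, so p-values reflect library-to-library spread, which may be technical.

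In glycolysis, glucose enters through Slc2a1 and Slc2a3, is phosphorylated by hexokinases and is turned stepwise into pyruvate, which lactate dehydrogenase A (Ldha) can reduce to lactate for export by Slc16a3. Hif1a encodes the oxygen-regulated subunit of HIF-1. With oxygen present, the prolyl hydroxylases encoded by Egln1 and Egln3 mark that subunit for destruction, and at low oxygen it accumulates and binds short DNA words with the core ACGTG or GCGTG. Many glycolysis genes, and genes of mitophagy, lipid storage and growth control, are known HIF-1 targets. In T cells, Hif1a and glycolysis are also raised by activation through the T cell receptor and mTORC1.

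The libraries held 3054435 to 7747699 counts in Tumor and 1676229 to 8412887 in WT, and they differed in more than their group. All levels given here are CPM (a gene's share of the library's counts) after TMM scaling, which assumes that most genes do not change. Foxp3 had reads in every library, at 36.9 to 148 CPM in Tumor and 3.87 to 39.7 in WT, where replicates 2 and 3 held 28 and 14 reads. The summed level of 14 T cell genes was 3950 to 8575 CPM in Tumor and 220 to 1478 in WT, and 7 of the 14 were called higher in Tumor. The summed level of 16 epithelial genes was 78.7 to 5043 CPM in Tumor, 35917 and 40612 in WT replicates 1 and 2, and 174 to 223 in WT replicates 3 to 5. No epithelial gene was called, 6 of the 16 were at 0 in Tumor replicate 2 and 1 was at 0 in WT replicate 4. The summed level of 12 macrophage and monocyte genes was 1449 to 6180 CPM in Tumor and 82.6 to 173 in WT, where 2 of the genes, Apoe and C1qa, were at 0 in replicate 3. Of the 11 that were tested, 6 were called higher in Tumor. The sum over B and plasma cell genes was highest in WT replicate 3 (13639 CPM), with 3249 in Tumor replicate 1 and 1947 in WT replicate 4, against 49.7 to 256 elsewhere. Neutrophil genes summed to 55.9 to 1596 CPM in Tumor and 6.91 to 104 in WT, and red cell genes to at most 1154 CPM (Tumor replicate 5). In WT replicates 3 to 5, 9.92 to 26.5% of counts fell on the repeat-made gene model Gm10800, against 0.844 to 5.77% in the other 7 libraries. The level over olfactory and vomeronasal receptors, genes of sensory neurons, was 4.19 and 3.45 CPM per kb in WT replicates 3 and 5. It was 2.286 in WT replicate 4, just under the 2.289 of WT replicate 1, and 1.05 to 2.02 in the remaining libraries. Per kb, Foxp3 was under this receptor gene level in WT replicates 2 and 3 and barely above it in WT replicate 1. The part of these differences in the results was not tested, and in bulk samples fewer cells of a type and less RNA per cell cannot be told apart.

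**Figure D1:**
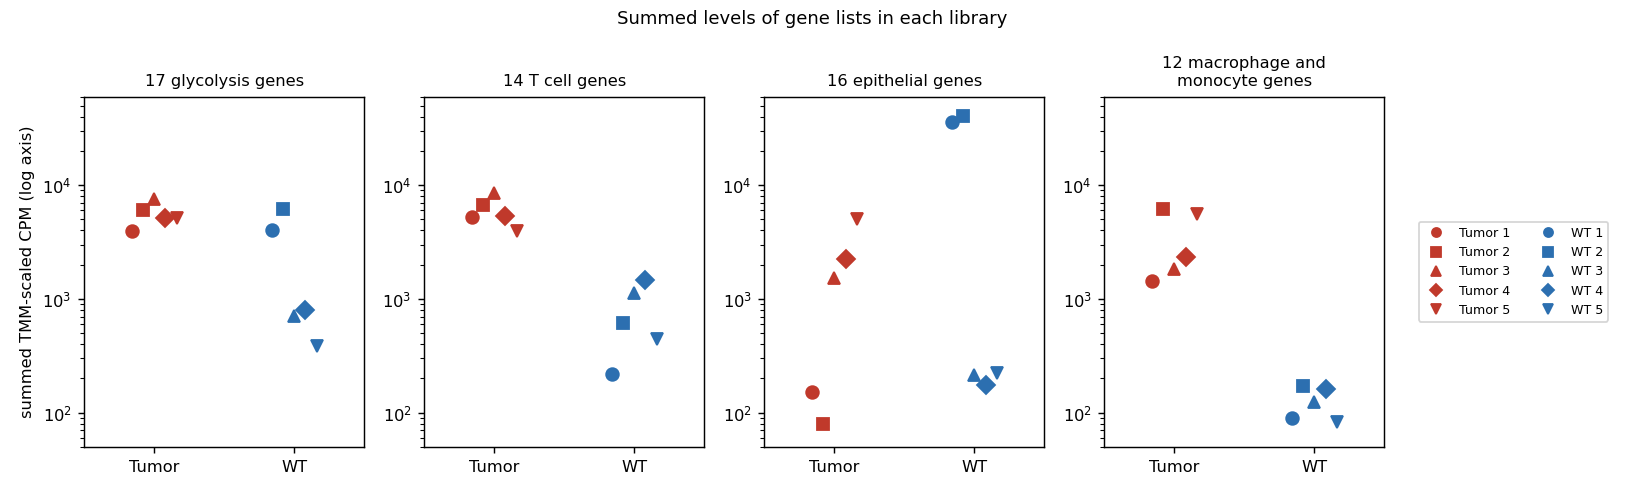
Summed TMM-scaled CPM (log axis) of 4 gene lists, each point a library, Tumor in red and WT in blue, with the shape giving the replicate number. The glycolysis sum of WT replicates 1 and 2 (4010 and 6148 CPM) lies within the Tumor range of 3953 to 7542, while WT replicates 3 to 5 lie at 384 to 798, and the epithelial sum splits the WT libraries in the same places.

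Of the 34 genes, 3 were higher in Tumor on TMM scaling and none was lower: Hilpda, Ddit4 and Slc16a3. A gene was called when its Benjamini-Hochberg adjusted p from edgeR's quasi-likelihood test over all tested genes was below 0.05. By that rule 1.37% of all tested genes were called higher in Tumor and 0.219% lower. The levels of these 3 genes did not overlap between groups, which held for 4.38% of all tested genes with Tumor above WT and for 1.57% with Tumor below WT. The summed T cell genes and the summed macrophage and monocyte genes did not overlap between groups either, and their part in these 3 rises was not tested. The promoters of the 3 are shown first because each gene has the HIF core word near a transcript start. For Hilpda, the 250 bases before the earlier start hold neither ACGTG nor GCGTG. Those before its later start hold 1 ACGTG and 2 GCGTG, and only the ACGTG site is shown. Slc16a3 has a second ACGTG, starting 14 bases before its transcript start and inside an annotated exon, which is not shown. Each line reads 5′ to 3′ along the gene's strand in GRCm38.p6, from RefSeq, with ACGTG or GCGTG in capitals, and the Slc16a3 and Ddit4 stretches hold no annotated exon.
Slc16a3, chr11:120948817-120949052, plus strand, ending 15 bases before the transcript start: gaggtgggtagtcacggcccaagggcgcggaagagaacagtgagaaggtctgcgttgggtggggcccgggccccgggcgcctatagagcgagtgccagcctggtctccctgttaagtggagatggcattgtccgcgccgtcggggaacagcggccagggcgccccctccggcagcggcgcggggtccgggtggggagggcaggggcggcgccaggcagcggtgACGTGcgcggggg
Ddit4, chr10:59951835-59952020, minus strand, ending 65 bases before the transcript start: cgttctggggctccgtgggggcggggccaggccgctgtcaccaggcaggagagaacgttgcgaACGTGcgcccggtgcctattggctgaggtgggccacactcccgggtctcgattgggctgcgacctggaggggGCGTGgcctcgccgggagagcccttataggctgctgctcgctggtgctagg
Hilpda, chr6:29272573-29272597, plus strand, 25 bases around the word, before the later transcript start and inside the first exon of the transcript from the earlier start: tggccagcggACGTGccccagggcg

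Hilpda encodes a protein of lipid droplets that slows the release of stored fat. Its level was 221, 414, 399, 294 and 239 CPM in Tumor replicates 1 to 5 and 18.5, 18.7, 0.469, 25.5 and 1.81 CPM in WT replicates 1 to 5. Every Tumor library was above every WT library, and WT replicates 3 and 5, the lowest, rested on 1 and 4 reads. The log2 fold change was 4.58 ± 0.86 (SE, edgeR adjusted p = 0.0131), the highest among the 34 genes, and per kb of gene length Hilpda ranked second of the 34 in Tumor (284 CPM per kb) and 12th in WT (11.8). The gene (ENSMUSG00000043421) lies at chr6:29272488-29275446 on the plus strand of mm10.

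Ddit4 (ENSMUSG00000020108, chr10:59949669-59951834) encodes REDD1, a stress-induced inhibitor of mTORC1. Tumor replicates 1 to 5 held 55.1, 117, 67.8, 46.7 and 50.9 CPM, and WT replicates 1 to 5 held 7.02, 6.50, 5.63, 6.19 and 0.907 CPM. The groups were far apart, with 4 of the 5 WT libraries close together and replicate 5, at 2 reads, below them. Ddit4 rose by 3.66 ± 0.60 on the log2 scale (edgeR adjusted p = 0.00612).

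Slc16a3 (ENSMUSG00000025161, chr11:120948480-120960868) encodes the monocarboxylate transporter MCT4, which carries lactate out of cells. It was at 39.6, 72.5, 54.5, 57.3 and 90.6 CPM in Tumor and at 10.3, 8.98, 20.7, 8.01 and 12.7 CPM in WT. The lowest Tumor library thus lay above the highest WT library, replicate 3. The log2 fold change was 2.38 ± 0.51 (edgeR adjusted p = 0.0227). Per kb, Slc16a3 was at or under the receptor gene level in 4 of 5 WT libraries, and Ddit4 and Hilpda in 2 of 5 (replicates 3 and 5). With that level subtracted from every gene in every library, an alternative chosen after the data were seen, none of the 34 genes and none of all tested genes passed in edgeR. The log2 fold changes of Slc16a3, Ddit4 and Hilpda were then 6.32, 4.47 and 4.06 (edgeR adjusted p = 0.204, 0.335 and 0.332).

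The Ddit4 and Hilpda calls held with each of the 10 libraries left out in turn, and the Slc16a3 call in 5 of the 10 fits. Without Tumor replicate 2, 3, 4 or 5 or WT replicate 1 the adjusted p of Slc16a3 was 0.0723, 0.0669, 0.0584, 0.0575 and 0.0967 in edgeR. Another scaling set the 14 T cell genes equal across libraries (pan-T scaling). Over all tested genes it moved the median from -0.20 to -3.70, and called 0.0794% of genes higher and 91.4% lower. On it Hilpda was at 1.02 (edgeR adjusted p = 0.252), Ddit4 at 0.14 (0.890) and Slc16a3 at -1.04 (0.256), so none of the 3 passed, and their distance above the median of all genes remained. Relative to T cell transcripts the rises on TMM scaling were therefore not detected.

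**Figure D2:**
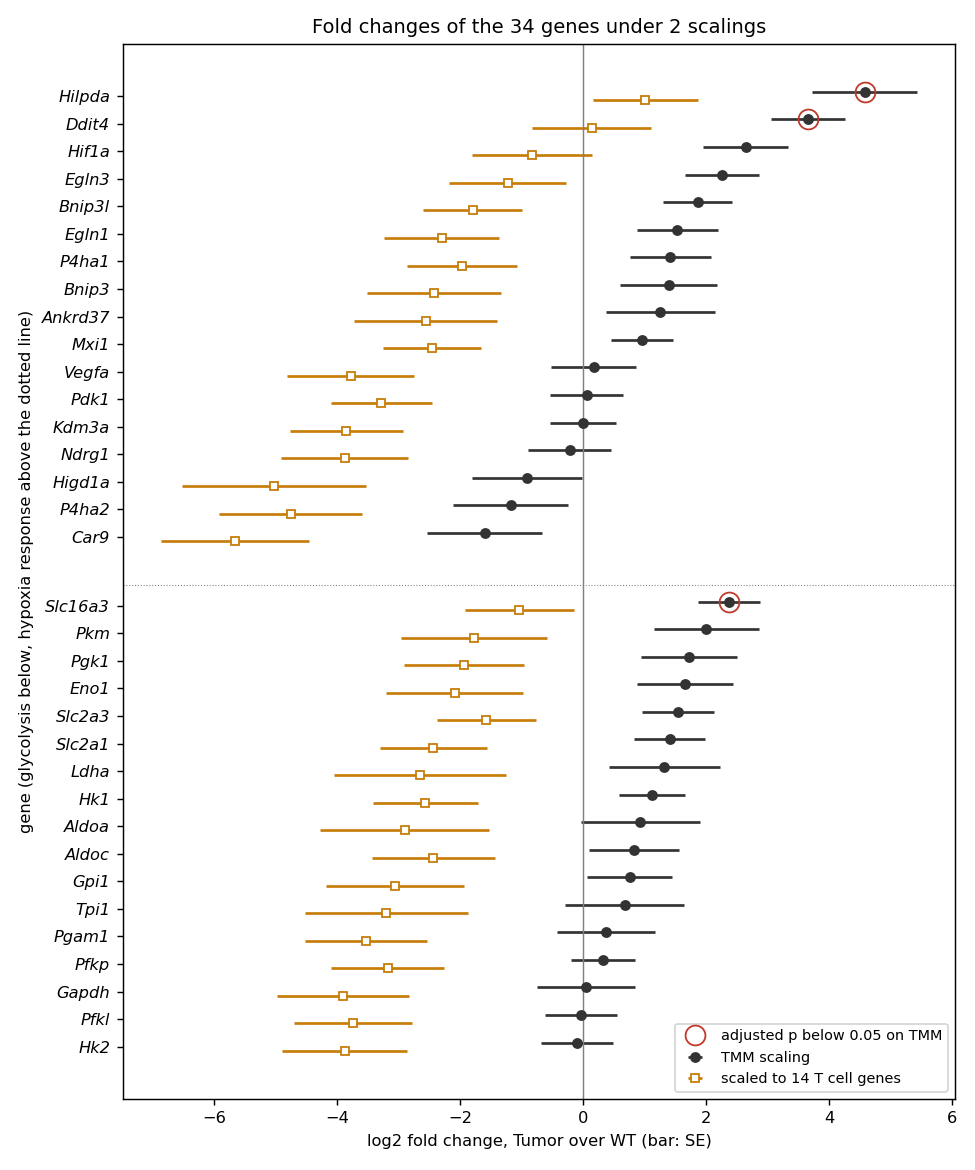
Log2 fold change of each of the 34 genes, Tumor over WT, with its SE as a bar, on TMM scaling (filled circles, ringed where the adjusted p was below 0.05) and on pan-T scaling (open squares). Hilpda and Ddit4 lie above 0 on both scalings (4.58 and 3.66, 1.02 and 0.14), and the other 32 lie below 0 on pan-T scaling.

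The other genes whose groups did not overlap were Hif1a, Egln3 and Bnip3l, which makes 5 of the 17 hypoxia genes and, with Slc16a3, 1 of the 17 glycolysis genes. Hif1a (ENSMUSG00000021109, chr12:73901375-73947530) was at 821, 1012, 1236, 1558 and 446 CPM in Tumor and at 154, 215, 223, 157 and 61.7 CPM in WT. Replicate 5 was the lowest library of each group, and the lowest Tumor value was above the highest WT value. Its log2 fold change of 2.64 ± 0.69 did not pass (edgeR adjusted p = 0.0605) and was -0.83 on pan-T scaling. Hif1a passed without WT replicate 5 (2.44, adjusted p = 0.0400 in edgeR) and in DESeq2 (2.46, adjusted p = 0.000309), which called 3.18% of all tested genes higher and 4.53% lower.

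Egln3, the hydroxylase gene that HIF-1 itself induces, was at 56.2, 58.4, 51.0, 28.9 and 30.7 CPM in Tumor and at 7.96, 20.6, 2.82, 9.83 and 4.99 CPM in WT. WT replicate 2 came closest to the Tumor libraries. The log2 fold change was 2.26 ± 0.60 (edgeR adjusted p = 0.0648, and -1.23 on pan-T scaling). Bnip3l encodes NIX, a receptor that sends mitochondria to autophagy. Its levels were 128, 141, 236, 175 and 137 CPM in Tumor and 56.2, 88.6, 21.1, 38.6 and 19.1 CPM in WT, with a log2 fold change of 1.87 ± 0.56 (edgeR adjusted p = 0.109, and -1.79 on pan-T scaling). Both missed the threshold in edgeR with all libraries, and passed it without WT replicate 2 (adjusted p = 0.030 for Egln3 and 0.0385 for Bnip3l in edgeR) and in DESeq2 (adjusted p = 0.0100 and 0.0174). Of the stretches of 50 bases in the longest Bnip3l transcript, 23.4% also occur in 1 pseudogene, so its reads may be split. DESeq2 called 5 hypoxia genes higher (Hilpda, Ddit4, Hif1a, Egln3 and Bnip3l) and, of the glycolysis genes, Slc16a3, beside 3.18% of all tested genes.

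The HIF core word was also found before the starts of Hif1a and Egln3, while Bnip3l had no promoter window to search. The sites are shown for comparison with the promoters above, 25 bases each with ACGTG in capitals, from the same RefSeq windows.
Hif1a, chr12:73907723-73907747, plus strand, word starting 134 bases before the transcript start: acagacaagcACGTGagcggggcag
Hif1a, chr12:73907787-73907811, plus strand, word starting 70 bases before the transcript start: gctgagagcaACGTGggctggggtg
Egln3, chr12:54204089-54204113, minus strand, word starting 229 bases before the transcript start: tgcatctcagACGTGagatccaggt
The first Hif1a word is part of the palindrome CACGTG, which reads as ACGTG on both strands. Over the windows of 300 bases per transcript start (250 before, 50 after), searched on both strands, 31 of the 34 genes had a window, and ACGTG was in 24 of them (77.4%). That compares with 21.8% of the 27025 genes with a window and 25.8% of the 14371 tested genes with a window. GCGTG was in 64.5% of the members, against 35.2% and 46.4%. A gene counted when any of its windows held the word, and genes differ in windows. The 31 members had 46 windows, all 27025 genes had 32851, and the 14371 tested genes had 18026. The glycolysis genes held ACGTG in 11 of 16 and the hypoxia genes in 13 of 15. The members' windows were also richer in GC, with a median of 64.5% and 23 CG pairs, against 58.0% and 16 in windows of tested genes, and both words contain a CG pair. These genes are widely listed HIF-1 targets, so the share describes the list and says nothing of binding in these cells.

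The remaining hypoxia genes did not pass in either direction with all libraries in edgeR. Egln1, the main oxygen-sensing hydroxylase, was at 41.3, 57.6, 47.6, 78.3 and 40.2 CPM in Tumor and at 32.3, 41.0, 2.35, 8.73 and 5.90 CPM in WT. WT replicate 2 lay just within the Tumor range, and WT replicates 3 to 5 were far below it. The log2 fold change of Egln1 was 1.53 ± 0.65 (edgeR adjusted p = 0.258). Bnip3, the mitophagy receptor related to Bnip3l, was at 20.4 ± 15.1 CPM (mean ± SD over 5 libraries) in Tumor and at 7.78 ± 3.62 CPM in WT (log2 fold change 1.39 ± 0.79), and Tumor replicate 2 held 1.66 CPM, less than any WT library. P4ha1 and P4ha2, the catalytic subunits of collagen prolyl hydroxylase, differed in sign: 54.0 ± 37.7 against 20.3 ± 15.2 CPM for P4ha1 (1.42 ± 0.66) and 7.49 ± 6.43 against 16.9 ± 15.8 CPM for P4ha2 (-1.17 ± 0.93). Ankrd37, an ankyrin repeat gene, ranged from 6.39 to 34.6 CPM in Tumor and from 0 to 17.8 in WT, where the 0 reads of WT replicate 3 allow up to 1.41 CPM. Mxi1, an antagonist of Myc, was at 65.0 ± 25.4 and 33.4 ± 17.3 CPM (0.96 ± 0.50).

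Several genes often used as readouts of low oxygen were near level or lower in Tumor by value, and none of these passed. Vegfa, the angiogenic growth factor gene, was at 16.6 ± 8.10 CPM in Tumor and at 14.6 ± 10.7 CPM in WT (log2 fold change 0.17 ± 0.69), and Pdk1, whose product holds back pyruvate dehydrogenase, was at 40.4 ± 22.9 and 38.9 ± 31.3 CPM (0.06 ± 0.59). Kdm3a was at 40.3 ± 23.0 and 40.1 ± 18.7 CPM, a log2 fold change of 0.003 ± 0.54. The stress gene Ndrg1 was at 62.7 ± 26.4 and 72.8 ± 70.2 CPM (-0.22 ± 0.68). Car9, the cell-surface carbonic anhydrase that disposes of acid, held 1.95 to 14.9 CPM in Tumor and 50.8, 32.9, 0.939, 1.82 and 15.4 CPM in WT. The high values of Car9 were thus those of WT replicates 1 and 2, and its log2 fold change was -1.60 ± 0.94 (edgeR adjusted p = 0.403). Higd1a, a mitochondrial protein gene, showed the same split more widely, at 127 to 198 CPM in Tumor and 847, 599, 16.0, 31.7 and 31.8 CPM in WT. Its log2 fold change over all libraries was -0.92 ± 0.89 (edgeR adjusted p = 0.627).

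**Figure D3:**
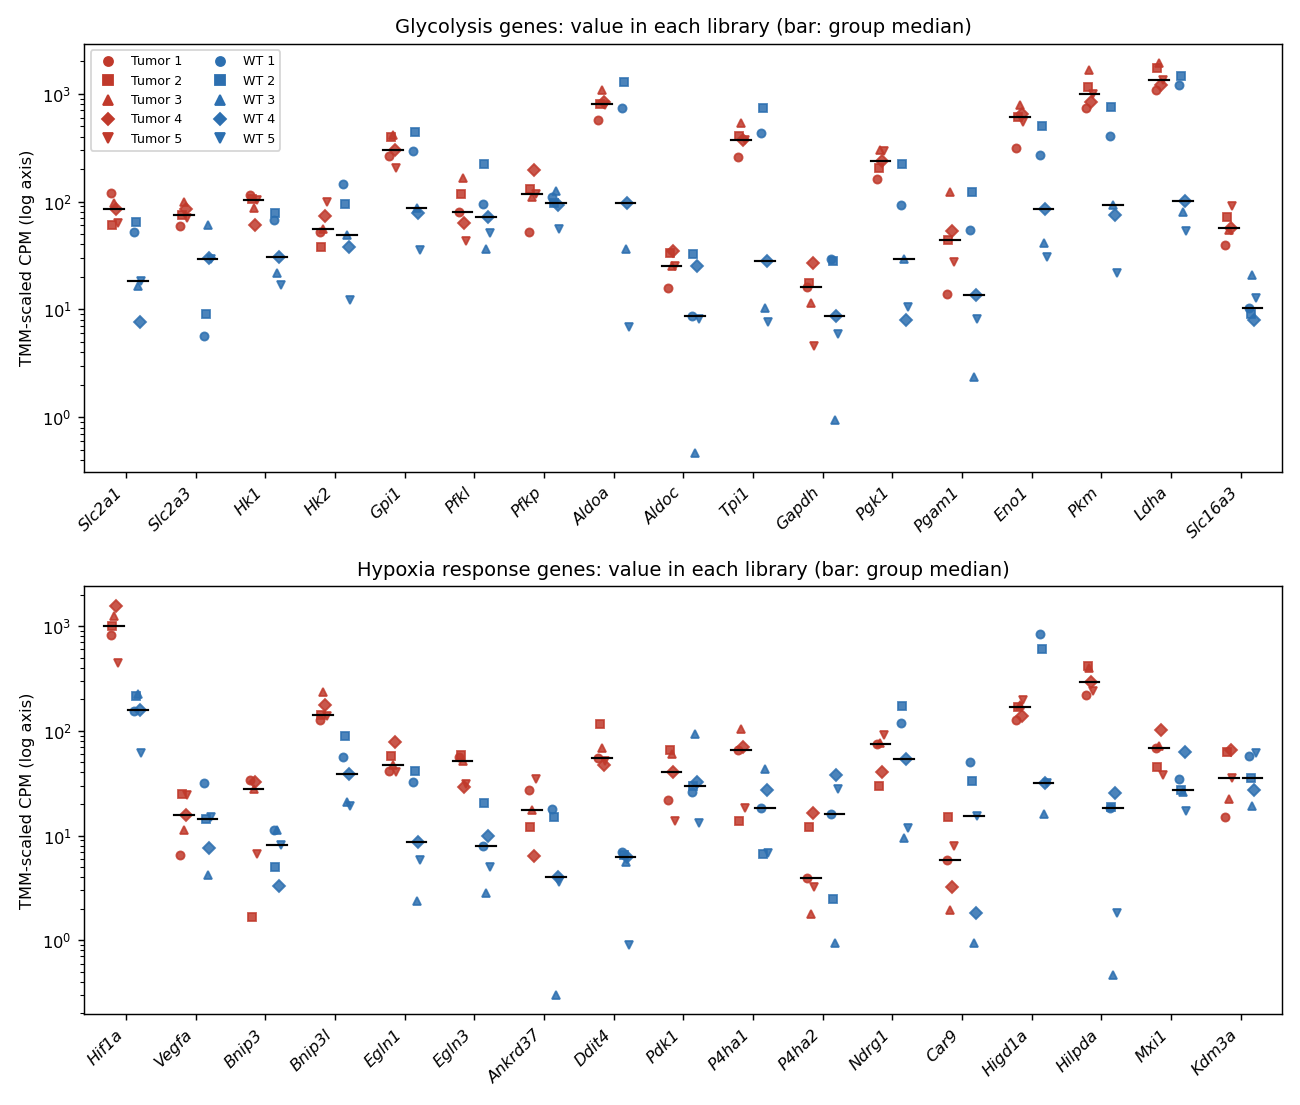
TMM-scaled CPM (log axis) of each glycolysis gene (upper panel) and hypoxia gene (lower panel), each point a library, Tumor in red and WT in blue, bars at the group medians. Slc16a3, Hif1a, Bnip3l, Egln3, Ddit4 and Hilpda have every Tumor point above every WT point, and for Aldoa, Tpi1, Ldha and Higd1a the WT points of replicates 1 and 2 stand apart from those of replicates 3 to 5. The 0 of Ankrd37 in WT replicate 3 is drawn at a fixed low position.

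Reads were counted for every step of glycolysis, though for Gapdh they did not exceed the receptor gene level in some libraries, as given below. Several glycolysis enzymes were among the most abundant of the 34 genes per kb. Of those ranked here, Ldha, Aldoa, Pkm, Eno1, Pgk1 and Gpi1 share over 10% of the 50-base stretches of their longest transcripts with other genes. Their levels, and with them the order, are therefore uncertain. In Tumor the order was Ldha (439 CPM per kb), Hilpda (284), Aldoa (281), Pkm (216), Hif1a (172), Tpi1 (141), Eno1 (109) and Pgk1 (107). In WT it was Ldha (176), Aldoa (147), Higd1a (100.3), Tpi1 (88.1), Pkm (53.7), Eno1 (34.3), Pgk1 (32.3) and Gpi1 (29.0). Among these neighbours in Tumor, the difference in mean was larger than the larger SD for Ldha over Hilpda alone, and in WT for none. The log2 fold changes of the 17 glycolysis genes ran from -0.10 to 2.38 with a median of 0.93, and those of the 17 hypoxia genes from -1.60 to 4.58 with a median of 1.25, while the median over all tested genes was -0.20. On TMM scaling 15 of the 17 glycolysis genes and 13 of the 17 hypoxia genes were positive. On pan-T scaling 0 and 2 were, the medians were -2.65 and -2.46, and 11 and 13 genes were called lower beside 91.4% of all genes.

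Slc2a3, the high-affinity glucose transporter gene, was at 59.0, 74.6, 99.8, 84.5 and 70.4 CPM in Tumor and at 5.62, 9.12, 60.1, 29.8 and 29.0 CPM in WT (log2 fold change 1.55 ± 0.58, edgeR adjusted p = 0.206). Only WT replicate 3 reached the Tumor range, and here WT replicates 1 and 2 were the lowest. Slc2a1, the general glucose transporter gene, had the other order in WT, with 121, 60.5, 97.2, 85.4 and 63.1 CPM in Tumor and 52.6, 65.2, 16.4, 7.64 and 18.1 CPM in WT (1.41 ± 0.58, edgeR adjusted p = 0.238). WT replicate 2 lay inside the Tumor range.

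Pkm, pyruvate kinase, the last step to pyruvate, was at 744, 1144, 1671, 838 and 1002 CPM in Tumor and at 409, 745, 92.0, 75.3 and 21.8 CPM in WT (2.01 ± 0.85, edgeR adjusted p = 0.257). Its highest WT library, replicate 2, was level with its lowest Tumor library. Pgk1, phosphoglycerate kinase, was at 162, 206, 303, 235 and 292 CPM in Tumor and at 93.6, 221, 29.6, 8.01 and 10.4 CPM in WT (1.72 ± 0.78, edgeR adjusted p = 0.287). Eno1, enolase, was at 313, 613, 793, 648 and 552 CPM in Tumor and at 268, 499, 40.8, 84.4 and 30.4 CPM in WT (1.66 ± 0.78, edgeR adjusted p = 0.303). In all 3 the SD in WT (307, 89.9 and 200 CPM) was larger than the WT mean (269, 72.5 and 184 CPM). Of the 10 fits with a single library left out, Pgk1 passed in 1, without WT replicate 2 (2.86, edgeR adjusted p = 0.0428).

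Ldha was at 1079, 1739, 1908, 1198 and 1333 CPM in Tumor and at 1201, 1473, 79.8, 101.9 and 53.5 CPM in WT. Aldoa, aldolase A, was at 566, 799, 1093, 839 and 789 CPM in Tumor and at 729, 1276, 36.6, 97.2 and 6.80 CPM in WT. For these abundant enzymes, WT replicates 1 and 2 stood inside or above the Tumor range and WT replicates 3 to 5 below it by a wide margin. The log2 fold changes over all libraries were 1.32 ± 0.90 for Ldha and 0.93 ± 0.97 for Aldoa (edgeR adjusted p = 0.476 and 0.653). Tpi1, triose phosphate isomerase, had the same form, with 260 to 531 CPM in Tumor and 434, 733, 10.3, 28.0 and 7.71 CPM in WT (0.68 ± 0.97).

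Among the other glycolysis genes the hexokinase genes went different ways, with Hk1 at 93.9 ± 21.2 CPM in Tumor and 43.0 ± 28.1 in WT (log2 fold change 1.12 ± 0.53) and Hk2 at 63.8 ± 23.5 and 68.1 ± 53.0 CPM (-0.10 ± 0.58). Gpi1, the isomerase after hexokinase, was at 316 ± 88.7 and 187 ± 174 CPM (0.76 ± 0.69). The phosphofructokinase genes, the main control step, were near level: Pfkp at 121 ± 51.7 and 96.3 ± 26.2 CPM (0.33 ± 0.52) and Pfkl at 93.3 ± 47.8 and 95.4 ± 74.6 CPM (-0.03 ± 0.58). Aldoc, aldolase C, was at 27.0 ± 7.74 and 15 ± 13.3 CPM (0.83 ± 0.73), and Pgam1, phosphoglycerate mutase, at 52.5 ± 42.5 and 40.4 ± 50.7 CPM (0.37 ± 0.80). None of these passed (edgeR adjusted p from 0.305 to 0.983). 

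Gapdh, which catalyses the step between Tpi1 and Pgk1 and is usually among the most abundant messenger RNAs, was counted at 4.59 to 27.0 CPM in Tumor and 0.939 to 29.5 in WT. Its 3.70 CPM per kb in Tumor ranked 32nd of the 34 genes, beside 141 for Tpi1 and 107 for Pgk1, and in Tumor replicate 5 and WT replicates 3 to 5 it was at or under the receptor gene level. Of the words of 50 bases in its longest annotated transcript (3289 bases), 27.2% also occur in other annotated genes, 213 of them, of which 207 are pseudogenes. Pgk1 and Eno1 share 68.0 and 72.2% of the words of their longest transcripts (1825 and 2027 bases) with fewer genes (5 and 9). These shares depend on the transcript taken, so they do not rank the genes by how far reads may be split. Over 10% was shared by 10 of the 34 genes: Gpi1, Aldoa, Gapdh, Pgk1, Pgam1, Eno1, Pkm, Ldha, Bnip3 and Bnip3l. How reads that map to several genes were counted is not given in the sources used here, so the levels of these 10 genes are uncertain. The 3 called genes share none.

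Most of the 34 genes varied more among WT than among Tumor libraries. The median coefficient of variation of the 17 was 29.3% in Tumor and 90.4% in WT, and 16 of the 17 varied more in WT. For the hypoxia genes it was 42.6% and 74.7%, with 14 of the 17 wider in WT. In 13 of the 17 glycolysis genes and 7 of the 17 hypoxia genes both WT replicates 1 and 2, the libraries with the epithelial transcripts, were above WT replicates 3 to 5. In WT replicates 3, 4 and 5, 16, 6 and 16 of the 34 genes were at or under the receptor gene level per kb, against 0 to 3 in the other 7 libraries. The spread, the order of the WT libraries and these counts were not computed over all tested genes. They therefore cannot be called particular to the 34 genes. 

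Without WT replicates 1 and 2, 11 of the 17 glycolysis genes and 7 of the 17 hypoxia genes were called higher in Tumor and none lower, beside 6.4% of tested genes higher and 1.5% lower. The 11 were Slc2a1, Hk1, Gpi1, Aldoa, Tpi1, Pgk1, Pgam1, Eno1, Pkm, Ldha and Slc16a3, with Tpi1 at a log2 fold change of 4.64, Ldha at 4.22 and Aldoa at 4.09. The 7 were Hif1a, Bnip3l, Egln1, Egln3, Ddit4, Higd1a and Hilpda, and Higd1a turned to 2.63. With WT replicates 1 and 2 as the only WT libraries, 2.32% of tested genes were called higher and 2.09% lower. Slc2a3 (3.36) and Slc16a3 (2.71) were then the glycolysis genes called higher, and Hilpda (4.08), Ddit4 (3.32) and Hif1a (2.45) the hypoxia genes, while Higd1a was called lower (-2.14). The values of Ldha and Aldoa against these libraries were 0.11 and -0.33. Slc16a3, Ddit4, Hilpda and Hif1a were thus called against either set of WT libraries on TMM scaling. The split of the WT libraries follows differences in these same data, and both comparisons use the same Tumor libraries. The 2 comparisons are therefore not independent of each other or of the levels described above. Pan-T scaling was run with all 10 libraries together, where none of the 4 was called.

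Ratios of paralogs within a library do not depend on its scaling, so 7 pairs among the 34 genes were compared by an exact 2-sided permutation test on log2 ratios of reads per kb (0.5 reads added), adjusted over the 7. None passed. The lowest p that 5 libraries against 5 allow is 0.00794, or 0.0556 after adjustment when a single pair reaches it. The ratio of Hk2, the inducible hexokinase, to Hk1, the constitutive form, was -0.60, -0.96, -0.10, 0.79 and 0.45 in Tumor and 1.62, 0.80, 1.70, 0.81 and 0.07 in WT. The difference of the means was -1.08 (exact permutation p = 0.0397, adjusted p = 0.278), with overlap between the groups. The ratio of Slc2a3 to Slc2a1 was -2.08 to -0.75 in Tumor, and in WT it was -4.25 and -3.88 in replicates 1 and 2 and -0.38 to 0.89 in replicates 3 to 5. The differences for that pair and for Pfkp to Pfkl, Aldoc to Aldoa, Bnip3 to Bnip3l, Egln3 to Egln1 and P4ha2 to P4ha1 were 0.20, 0.15, -1.13, -1.20, 0.31 and -2.04 (exact permutation, adjusted p from 0.648 to 0.889).

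**Figure D4:**
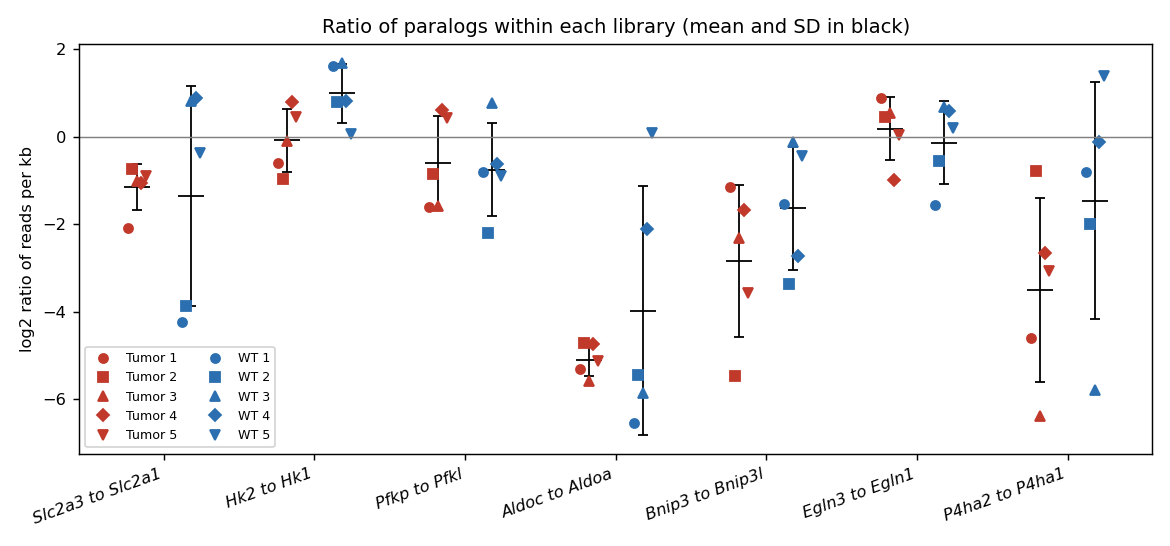
Log2 ratio of reads per kb for 7 pairs of paralogs in each library, Tumor in red and WT in blue, with group means and SDs in black. The ratio of Hk2 to Hk1 averages -0.08 in Tumor and 0.999 in WT with overlapping points, and the WT ratios of Slc2a3 to Slc2a1 stand at -4.25 and -3.88 in replicates 1 and 2 and between -0.38 and 0.89 in replicates 3 to 5.

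Of 4 further lists of the same pathways, no gene was called with all libraries in edgeR. Among 31 tested genes of other glycolytic isoforms and pyruvate metabolism the median log2 fold change was -0.35, with 0 higher and 5 lower at an unadjusted p below 0.05, which held for 7.75% of all tested genes with higher values in Tumor and 8.31% with lower. The hexokinase-like gene Hkdc1 ranged from 2.07 to 12.6 CPM in Tumor and from 11.6 to 79.4 CPM in WT. Its log2 fold change was -2.49 ± 0.66 and that of the muscle enolase gene Eno3 -4.51 ± 1.31 (edgeR adjusted p = 0.0616 and 0.111), and Eno3 was at 174 and 341 CPM in WT replicates 1 and 2 and at 0.829 to 8.60 CPM in the other libraries. DESeq2 called 3 genes of this list lower, beside 4.53% of all tested genes. Among 10 oxygen sensing genes the median was 0.43 and 2 were higher at an unadjusted p below 0.05, Vhl, the ubiquitin ligase subunit that binds hydroxylated Hif1a (1.81 ± 0.66), and Eloc, its elongin partner (1.45 ± 0.59), with edgeR adjusted p = 0.188 and 0.232, and DESeq2 called none. Vhl ranged from 18.1 to 53.9 CPM in Tumor and from 3.74 to 27.4 CPM in WT, and Eloc from 86.3 to 139 and from 10.4 to 77.2 CPM.

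Among 28 tested genes of other hypoxia targets the median was 0.36 and 6 were higher at an unadjusted p below 0.05, beside 7.75% of all tested genes. Bhlhe40, a repressor that T cells also induce on activation, was at 442 to 632 CPM in Tumor and at 21.3 to 186 CPM in WT (2.47 ± 0.69), and Ero1l, an oxidase of protein folding, at 49.5 to 78.3 and 14.7 to 34.3 CPM (1.68 ± 0.47). Neither group pair overlapped, neither passed (edgeR adjusted p = 0.0797 and 0.0843), and DESeq2 called 4 genes of the list higher, beside 3.18% of all tested genes. Among 12 mTORC1 and AMPK genes the median was -0.32, with 1 higher and 2 lower at an unadjusted p below 0.05, beside 7.75% and 8.31% of all tested genes. The lower ones were the mTOR inhibitor gene Deptor (-2.73 ± 0.70) and the AMPK subunit gene Prkaa2 (-2.56 ± 0.76), with edgeR adjusted p = 0.0554 and 0.105, and both were highest in WT replicates 1 and 2. Deptor ranged from 2.07 to 19.96 CPM in Tumor and from 13.5 to 153 CPM in WT, and Prkaa2 from 1.24 to 18.6 and from 7.28 to 95.7 CPM. DESeq2 called 2 genes of this list lower, beside 4.53% of all tested genes. On pan-T scaling 29 of 31, 9 of 10, 20 of 28 and 11 of 12 tested genes of the 4 lists (69 in all) were called lower and none higher. Over all tested genes 91.4% were called lower and 0.0794% higher on that scaling.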

How the data were processed

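Whole-number read counts per gene for 10 libraries were used as deposited. Per the submitters' processing notes the build was mm10, with HISAT2 2.0.5 and featureCounts 1.5.0-p3. Whether strand was used, which annotation release, and how multi-mapping reads were counted are not given in the sources used here. Of the 34 genes, 15 overlap an exon of another gene, so strand could matter there. Per the labels' protocols, libraries came from sorted cells with a transposase kit. Groups and replicate numbers come from the titles. The 10 single-library files equal the table, no 2 libraries agreed within sampling noise, and reads carry no molecular identifiers, so counting error understates the error.

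In R 4.3.3, edgeR 4.0.16 kept genes by filterByExpr (minimum count 10, total 15), scaled by TMM (CPM are relative to the counts of the kept genes) and fitted all 10 libraries with group as the only term (robust quasi-likelihood F test, 2-sided). Benjamini-Hochberg adjustment ran over 21414 genes, with calls below 0.05. The biological coefficient of variation was 86.1%. The SE is the log2 fold change over the root of F. The script was tested on simulated counts, with recovery of set changes required only at a dispersion of 0.05, below the 0.742 of these data. Pan-T scaling set the geometric mean of 14 T cell genes equal across libraries. Alternatives were RLE and no composition factors, DESeq2 1.42.0, limma 3.58.1 voom, no filter, at least 10 CPM in 5 libraries, the replicate block, WT libraries left out in sets and each library left out. Subtraction of the receptor level (1466 genes) was added after the data were seen. Exact permutations and promoter windows were computed in Python 3.11.15. Shared words of 50 bases, taken from the longest transcript of each member, and exon overlaps came from GENCODE transcripts.

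The members and all lists were chosen with earlier results of these data known. All 34 members are named. Values in every library were given for called members, the 6 with the smallest p in each set of 17, the 3 most abundant per kb and Hif1a, and of further lists for the 2 genes with the smallest p, as ranges. Values of Tpi1, Car9 and Higd1a by library were added after they were seen.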

Additional observations from a re-analysis of the deposited data

Results flagged for a closer look

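In 82 groups of 5 libraries (the levels of the 34 genes and the 7 paralog ratios in each group), 3 values stood apart from the other 4 by Dixon's criterion, which flags about 1 group in 20 by chance. Ddit4 was at 0.907 CPM in WT replicate 5, against 5.63 to 7.02 in the other WT libraries. Pdk1 was at 93.4 CPM in WT replicate 3, against 13.2 to 32.4. The log2 ratio of Slc2a3 to Slc2a1 was -2.08 in Tumor replicate 1, against -1.06 to -0.75 in the other Tumor libraries.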

How the results depend on the processing

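The counts of called genes moved with scaling, test and WT libraries. In edgeR with all libraries on TMM scaling, 340 genes were called, 1 of them a glycolysis gene, 2 hypoxia genes and 0 of the 4 further lists. These 4 counts were 19581, 11, 13 and 69 on pan-T scaling (nearly all lower), 1651, 1, 5 and 9 in DESeq2, 820, 1, 3 and 4 with no filter, 1993, 11, 7 and 11 without WT replicates 1 and 2, and 1325, 2, 4 and 10 without WT replicates 3, 4 and 5. With the receptor level subtracted they were all 0. The further lists had 1 call with RLE factors, 1 with limma voom and 2 at 10 CPM or more. No composition factors left 0 glycolysis calls (Slc16a3 adjusted p = 0.0746). With single libraries left out the ranges were 65 to 417 (lowest without Tumor replicate 3), 0 to 2, 2 to 4 and 0 to 4 (highest without WT replicate 4). The causes were not tested.

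Same-numbered libraries showed no joint deviation (correlations of their deviations -0.14, -0.0064, -0.10, -0.033 and 0.040), and the labels do not say that the numbers pair libraries. The wide differences among the WT libraries could mask a pairing, so these correlations cannot exclude one. The replicate block gave 141 calls in all and 0 glycolysis calls (Slc16a3 adjusted p = 0.0739), with the Ddit4 and Hilpda calls counted as before (2). The paralog ratios bear on no stability: sign flips within the block allow no p below 0.0625, and a single pair among 5 against 5 libraries none below 0.0556 after adjustment.

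On pan-T scaling, 26 genes that were positive on TMM turned: Slc2a1 -2.43, Slc2a3 -1.57, Hk1 -2.57, Gpi1 -3.06, Pfkp -3.18, Aldoa -2.90, Aldoc -2.44, Tpi1 -3.20, Gapdh -3.90, Pgk1 -1.93, Pgam1 -3.53, Eno1 -2.08, Pkm -1.78, Ldha -2.65, Slc16a3 -1.04, Hif1a -0.83, Vegfa -3.78, Bnip3 -2.42, Bnip3l -1.79, Egln1 -2.30, Egln3 -1.23, Ankrd37 -2.56, Pdk1 -3.28, P4ha1 -1.97, Mxi1 -2.46 and Kdm3a -3.85. Gapdh, Pdk1 and Kdm3a were at -0.0040, -0.19 and -0.14 in DESeq2, at -0.0016, -0.19 and -0.14 with RLE factors, and at -0.069, -0.33 and -0.32 at 10 CPM or more, where Vegfa was at -0.052. Pdk1 and Kdm3a were at -0.36 and -0.20 with no composition factors. In limma voom, Hk2, Pfkl, Ndrg1, Higd1a and Kdm3a were at 0.22, 0.13, 0.32, 0.83 and -0.12, and with the replicate block at 0.19, 0.055, 0.41, 0.95 and -0.053. Hk2 and Pfkl were at 0.036 and 0.066 with no filter. With the receptor level subtracted, Pfkp, Gapdh, Pdk1 and Kdm3a were at -0.0092, -0.22, -0.52 and -0.42. Without WT replicates 1 and 2, Hk2, Pfkl, Pdk1, Ndrg1, Car9 and Higd1a were at 0.95, 0.83, -0.17, 1.29, 0.25 and 2.63, and the ratio differences of Slc2a3 to Slc2a1, Pfkp to Pfkl and Egln3 to Egln1 at -1.60, -0.35 and -0.31. Without WT replicates 3, 4 and 5, Gpi1, Aldoa, Tpi1, Gapdh, Pgam1, Vegfa and Kdm3a were at -0.24, -0.33, -0.62, -0.89, -0.81, -0.44 and -0.17, and the ratio difference of Aldoc to Aldoa at 0.89. With single libraries left out, the ranges that crossed 0 were -0.36 to 0.35 for Hk2, -0.29 to 0.60 for Pfkl, -0.24 to 0.54 for Gapdh, -0.17 to 1.501 for Pgam1, -0.040 to 0.66 for Vegfa, -0.19 to 0.69 for Pdk1, -0.49 to 0.45 for Ndrg1 and -0.21 to 0.26 for Kdm3a, and for the ratio differences -0.21 to 0.53 for Pfkp to Pfkl, -0.52 to 0.77 for Slc2a3 to Slc2a1 and -0.047 to 0.61 for Egln3 to Egln1.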
